A study of Mus musculus with 82 samples.

Results

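Gene-by-gene nascent transcription was compared between AGTuC and inAGTuC, which are both run-on assays of whole cell populations. The comparison took the 6 libraries that the labels name AGTuC or inAGTuC, of 82 libraries in the series. All came from V6.5 cells, a mouse embryonic stem (ES) cell line that was grown in serum and LIF on gelatin. In both assays, engaged RNA polymerases in isolated nuclei were allowed to run on in the presence of 3′-(O-propargyl)-NTPs, and the labelled RNA was then joined to DNA by copper-catalysed click chemistry. AGTuC uses a high concentration of the detergent sarkosyl, which breaks the nuclear membrane, and a single barcode per library. inAGTuC uses less sarkosyl, so that nuclei stay intact, and urea then releases the RNA in wells that each carry their own barcode, 96 per library. The 2 AGTuC libraries are Exp125c_c01 and Exp125c_c02 (called AGTuC 1 and 2 here). The 4 inAGTuC libraries are Exp208_c12, Exp208_c14, Exp234_c11 and Exp261_c16 (inAGTuC 1 to 4). AGTuC therefore comes from 1 experiment and inAGTuC from 3, and assay, experiment and culture cannot be told apart in any value that follows. The labels do not say that libraries come from separate cultures, so p-values of body signal measure the spread between these libraries, which may be technical. In the tests of read shares below, p-values rest on read counts and on a dispersion moderated over all genes. A gene's own spread between libraries enters them less, and very small values reflect read depth.

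RNA polymerase II starts at the promoter, often pauses within the first stretch of the gene, and is then released into the gene body. Past the poly(A) site it goes on transcribing for some distance before it terminates. Run-on reads mark the 3′ end of each RNA and so the place of the polymerase, and strong detergent is known to free paused polymerases for the run-on reaction. Each read was placed by the 3′ end of its RNA and counted on the sense strand in the RefSeq genes of GRCm38, in 3 regions. The promoter is 500 bp to each side of the annotated start, the body runs from there to the annotated end, and the downstream region is the 5 kb past the end. Body signal is given in reads per 1000000 deposited reads of the library (RPM). The promoter share is the percentage of promoter reads among promoter and body reads, and the downstream share is the corresponding percentage for the downstream region. Reads on small RNA genes (snoRNA, snRNA, tRNA, miRNA and the like) were left out, since they took between 0.622% and 11.8% of the reads in inAGTuC and 0.255% and 0.279% in AGTuC.

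Libraries held 787132, 1016469, 1912347 and 1526599 reads in inAGTuC and 2243292 and 4767439 in AGTuC. inAGTuC 3 stood apart, because only 52% of its gene reads lay on the sense strand, against 70.9% to 81.7% in the other libraries. Of the reads of inAGTuC 4, 99.7% are also in the list that is deposited as scGRO–seq under the same name, and its label was kept. Reads more than 10 kb from any gene made up 7.14% to 13.3% of inAGTuC libraries and 2.25% and 2.34% of AGTuC libraries. Reads were also looked up by position, strand, barcode and UMI in the other libraries of the series, except for the list that shares its name with inAGTuC 4. Reads so found made up 20.8%, 19.2%, 23.5% and 4.67% of inAGTuC 1 to 4 and 0.511% and 0.245% of AGTuC. Their part in the differences was tested only by leaving them out, and reads that inAGTuC 4 shares only with the list of its name stayed in. Median mapped lengths were 33 to 49 bp in inAGTuC and 65 bp in AGTuC. Markers of ES cells were present in all libraries, and their body reads summed to 548 to 1091 RPM in inAGTuC and 1553 to 1677 RPM in AGTuC. Among the 12 ES cell markers, Sox2 lies inside Sox2ot on the same strand and its reads were not counted. The 13 fibroblast markers summed to 250.5 to 530 RPM and 403 to 417 RPM, and the 17 markers of primitive endoderm and differentiated cells to 254 to 380 RPM and 185 to 206 RPM, in that order of assays.

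Sequences around the starts of 5 genes are shown because ribosomal protein genes, which are known to start within a pyrimidine tract, and genes such as Ctnna3 and Ica1l differ in the promoter comparison below. They are RefSeq sequences of GRCm38.p6, from 50 bases before to 50 bases from the annotated start, and capitals mark any of the hexamers CTCTTT and CTCTTC (alike but for the last base), TCTTCC (shifted by 1 base), CTTTCC and also CTTTTC on the sense strand between 20 bases before and 50 bases after the start.
Rps18 (chr17:33955616-33955715, minus strand): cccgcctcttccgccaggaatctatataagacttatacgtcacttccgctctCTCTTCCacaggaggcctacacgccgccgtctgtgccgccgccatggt
Rpl11 (chr4:136053344-136053443, minus strand): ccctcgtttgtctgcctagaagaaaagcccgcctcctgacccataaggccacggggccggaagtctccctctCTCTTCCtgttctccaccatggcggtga
Rps9 (chr7:3703991-3704090, plus strand): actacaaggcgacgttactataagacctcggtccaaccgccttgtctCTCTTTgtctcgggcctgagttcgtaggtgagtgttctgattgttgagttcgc
Ctnna3 (chr10:63430048-63430147, plus strand): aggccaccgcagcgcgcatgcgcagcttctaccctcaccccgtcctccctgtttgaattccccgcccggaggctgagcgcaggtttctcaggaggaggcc
Ica1l (chr1:60043073-60043172, minus strand): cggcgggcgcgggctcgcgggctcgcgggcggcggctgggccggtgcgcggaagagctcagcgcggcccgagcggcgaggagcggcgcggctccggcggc
One of these hexamers, chosen after sequences had been seen, was present in 41 of 65 ribosomal protein promoters (63.1%) and in 2324 of all 19140 promoters of that length (12.1%), some hexamers overlapping each other. In Rpl11 the marked stretch lies downstream of the annotated start, which is not itself within a pyrimidine tract. GC content of the 300 promoter bases was 56.7%, 54% and 53.7% for the 3 ribosomal protein genes and 67% and 80.7% for Ctnna3 and Ica1l.

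Body signal differed between the assays for many genes. Of 15368 genes with at least 20 body reads, 33.8% were called, of which 2141 (13.9%) had a higher and 3061 (19.9%) a lower body signal in AGTuC (limma voom, Benjamini–Hochberg adjusted p below 0.05). Of the genes tested, 10.5% reached 20 body reads in AGTuC alone, where 566 were higher and none lower, and 12.8% in inAGTuC alone, where 1668 were lower and none higher, so that the read minimum sets the direction of such calls. Among the 10995 genes that reached it in both assays, 1574 were higher and 1316 lower. Libraries were scaled so that the median gene lay near 0 (−0.01 on the log2 scale), so that higher and lower are relative to the median gene. When libraries were scaled to all deposited reads instead, the median gene lay at 0.27 and calls were 2892 higher and 2616 lower. With the total of body reads as the scale, the median lay at 0.13 and calls were 2755 and 2718. Without AGTuC 2, 717 genes were called (411 higher and 306 lower), and without AGTuC 1 2228. Either way 1 AGTuC library is left, which is then assumed to vary like the inAGTuC libraries. With the read density far from genes taken off every region, 1370 genes were higher and 1573 lower.

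Gene length ordered the body signal. Among 1427 genes under 5 kb, 551 were higher and 16 lower in AGTuC, with a median log2 difference of 1.14. Medians were 0.47 for genes of 5 to 20 kb, −0.18 for 20 to 100 kb and −1.20 for 100 to 500 kb. None of 206 genes over 500 kb was higher and 192 were lower, with a median of −3.68. Far from genes, read density had a median of 46.8 to 102 RPM per Mb in inAGTuC and of 0 and 2.70 in AGTuC. Once that density was taken off, the same medians were 0.98, 0.41, −0.14, −0.85 and −2.05. The medians kept their order by length, and that of the longest genes came closer to 0. Per 100 kb and strand, the median density was 4, 2.38, 9.25 and 5.5 reads in inAGTuC and 0 and 0.643 in AGTuC. At that density a gene over 500 kb can reach 20 body reads in inAGTuC alone, which sets the direction of its call. The counts of calls by length are given without this density taken off. Mllt3, which encodes a super elongation complex component and spans 263 kb, is an example of a long gene with many reads. Its body signal was 86.4, 81.7, 53.3 and 74.7 RPM in inAGTuC and 13.8 and 13.2 RPM in AGTuC (log2 difference −2.69, SE 0.26, adjusted p = 0.00017). In protein-coding genes, exons held 16.5% to 21.6% of body reads in inAGTuC and 17.1% and 17.4% in AGTuC, although they make up 6.22% of body bases. Unlike elsewhere, reads on small RNA genes were counted here, and small RNA genes with a RefSeq transcript inside these bodies counted as exons.

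**Figure D1:**
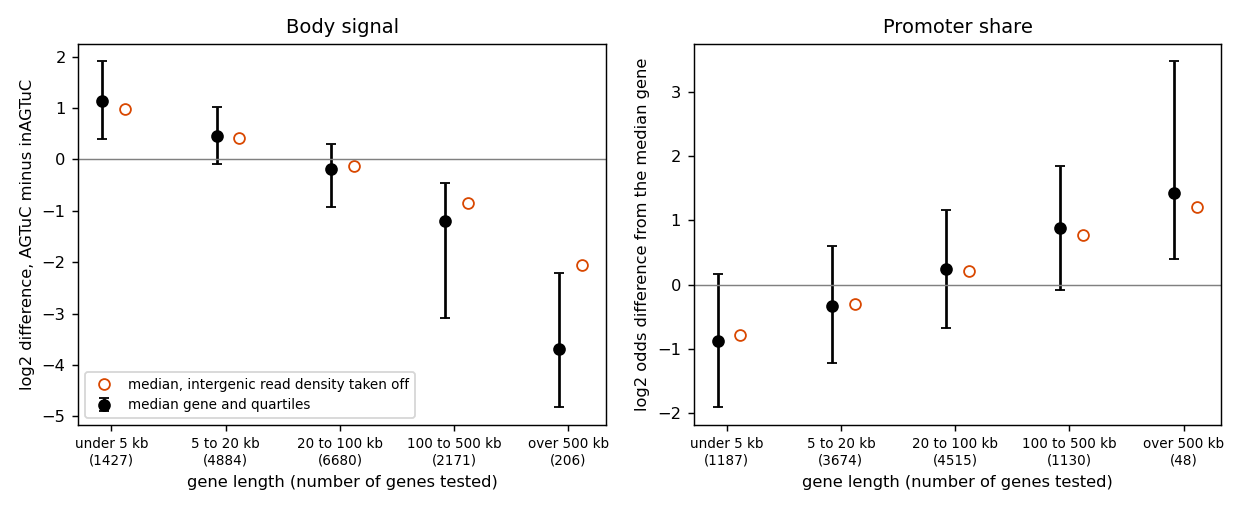
Median log2 difference between AGTuC and inAGTuC by gene length for body signal (left) and promoter share, as log2 odds from the median gene (right); bars are quartiles over genes, open circles are medians after the read density far from genes was taken off. The median of body signal falls from 1.14 under 5 kb to −3.68 over 500 kb, and that of the promoter share runs the other way.

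Nearly all cytosolic ribosomal protein genes had a higher body signal in AGTuC. These genes encode the proteins of the small and large subunit and are short and strongly transcribed. Of 82 tested, 77 had a higher body signal in AGTuC and none a lower one, with a median log2 difference of 1.97. Shares over all genes tested were 13.9% higher and 19.9% lower. Under 5 kb, the median was 2.01 over 70 such genes, against 1.14 over all genes of that length and 1.28 over the 875 of them among the genes with the highest body signal per kb (the top 25%). Rps20 had 8.89, 13.8, 2.61 and 13.1 RPM in inAGTuC and 113 and 105 RPM in AGTuC (log2 difference 3.46, SE 0.42, adjusted p = 0.00036). For Rpl11, whose start is shown above, the values were 3.81, 13.8, 6.28 and 6.55 RPM against 83.4 and 67.5 RPM (log2 difference 3.03, adjusted p = 0.00034). Rps18 had 7.62, 28.5, 10.5 and 14.4 RPM in inAGTuC and 112 and 107 RPM in AGTuC (log2 difference 2.65, adjusted p = 0.00038). In all 3 genes every AGTuC library was above every inAGTuC library. After scaling, this held for 25.4% of all genes tested, and the reverse for 26.5%. Rpl13 differed likewise (log2 difference 2.79, adjusted p = 0.00029). Many of these genes carry snoRNAs in their introns, and with reads on small RNA genes counted the list had 49 higher and 3 lower genes and a median of 1.43. Rps20 and Rpl13 were then no longer called (log2 differences 0.33 and 0.34). Without AGTuC 2, 44 genes of the list were higher and none lower. The 75 tested genes of mitochondrial ribosomal proteins had a median of 0.62, with 13 higher and 1 lower, where 13.9% of all genes tested were higher.

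Host genes of snoRNAs release small nucleolar RNAs from their introns, and many of them encode no protein. Of 20 tested, 10 had a higher and 1 a lower body signal in AGTuC, with a median of 1.10. Over all genes tested, 13.9% were higher and 19.9% lower, and the median of all genes under 5 kb given above is about as large as that of this list. Snhg15 had 7.62, 13.8, 5.75 and 11.8 RPM in inAGTuC and 43.2 and 45.7 RPM in AGTuC (log2 difference 1.93, adjusted p = 0.0013). Snhg16, Rps3 and Snhg7 were higher as well, by 1.58, 1.65 and 1.50 on the log2 scale, and these 3 calls were lost without AGTuC 2 (adjusted p = 0.050, 0.061 and 0.058). These values hold for reads outside the snoRNAs. With reads on small RNA genes counted, none of the list was higher, 4 were lower, and the median was −1.52. Snhg15, Snhg16, Rps3 and Snhg7 then had differences of −0.55, −1.13, −1.42 and −0.80, none of them called. Hspa8, a constitutive chaperone gene whose introns also carry snoRNAs, went from 2.17 to −1.75 (adjusted p = 0.0012 and 0.015).

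Pluripotency genes encode the transcription factors that keep ES cells undifferentiated. Of 17 tested, 10 were higher and none lower in AGTuC, with a median of 0.94, and fewer were called without AGTuC 2. Over all genes tested, 13.9% were higher and 19.9% lower. Tbx3 had 27.9, 42.3, 18.3 and 16.4 RPM in inAGTuC and 148 and 160 RPM in AGTuC (log2 difference 2.40, SE 0.30, adjusted p = 0.00038). For Klf2 these values were 15.2, 24.6, 12 and 9.83 RPM against 80.7 and 74.3 RPM (log2 difference 2.13). Nanog had 20.3, 23.6, 9.94 and 16.4 RPM against 61.1 and 55.4 RPM (log2 difference 1.54, adjusted p = 0.0022). In all 3 genes the libraries of the assays did not overlap, which after scaling was so for 25.4% of all genes tested with AGTuC higher and 26.5% with AGTuC lower. Klf5 was higher by 1.59, but its call was lost without AGTuC 2 (adjusted p = 0.056). In the LIF and STAT3 pathway, on which ES cells depend, 8 of 17 genes were higher and 2 lower. Socs3, a feedback inhibitor of this pathway, had 12.7, 27.5, 7.84 and 5.24 RPM in inAGTuC and 115 and 86.6 RPM in AGTuC (log2 difference 2.93, adjusted p = 0.00051). The kinase gene Pim3 was higher by 2.38 (adjusted p = 0.00038). The median of 0.94 of the pluripotency genes lies between those of all genes under 5 kb and of 5 to 20 kb given above. Klf2, Socs3 and Pim3 are themselves short, at 2.59, 3.29 and 3.53 kb, and the LIF and STAT3 list was not split by length.

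Calls among genes that respond fast to signals were mostly in the same direction. Of 27 immediate early and fast response genes, 11 were higher and 1 lower, with a median of 0.81. Over all genes tested, 13.9% were higher and 19.9% lower. The median of this list is below that of all genes under 5 kb given above, and many of its members are short. Ier2, a short gene of 1.52 kb, had 7.62, 10.8, 2.61 and 0.655 RPM in inAGTuC and 102 and 79.7 RPM in AGTuC (log2 difference 4.37, adjusted p = 0.00043). Spry2, an inhibitor of receptor tyrosine kinase signalling, was higher by 2.03 and Id1, a target of BMP signalling, by 3.12, although with 8 body reads in inAGTuC it passed the minimum through AGTuC alone. In the list of the FGF, Nodal and BMP response, which shares members with it, 12 of 24 were higher and 2 lower. Smad7, an inhibitor of TGF-β and BMP signalling, had 63.5, 107, 56 and 67.5 RPM against 383 and 337 RPM (log2 difference 2.06, adjusted p = 0.00034). Among p53 targets, 9 of 19 were higher and 1 lower, with a median of 1.30, and without AGTuC 2 only 1 was called. Aen, a nuclease gene of this list, was higher by 2.14 (adjusted p = 0.00045).

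Calls in lists of housekeeping genes were mostly in the same direction, with smaller medians. Without AGTuC 2, which took calls from 5202 to 717 over all genes, none of the G2 and mitosis list and 1 of the replication list were called. In the list of actins and tubulins with their partners, 9 of 21 genes were higher and none lower. Actg1, which encodes cytoplasmic actin, had 5.08, 3.94, 1.57 and 5.24 RPM in inAGTuC and 28.1 and 34 RPM in AGTuC (log2 difference 2.75, adjusted p = 0.00095), and with 19 body reads in inAGTuC it passed the minimum through AGTuC alone. The tubulin genes Tuba1c and Tubb5 were higher by 2.31 and 1.52. Of nucleolar ribosome biogenesis genes 10 of 31 were higher, of chaperones 8 of 24, of replication licensing genes 8 of 27 (Mcm7 by 1.53), and no member of these lists was lower. Numbers of higher and lower genes were 9 and 1 of 22 for G2 and mitosis, 7 and 1 of 20 for glycolysis, 6 and 1 of 24 for cholesterol synthesis and 20 and 3 of 86 for the respiratory chain. Cdk1, the mitotic kinase gene, was higher by 1.24, and by 1.18 without AGTuC 2 (not called, adjusted p = 0.095). Mki67, which encodes a protein of mitotic chromosomes, was the lower one: it had 182, 166, 95.2 and 133 RPM in inAGTuC and 63.7 and 59.8 RPM in AGTuC (log2 difference −1.45, adjusted p = 0.0017, and −1.41 and 0.062 without AGTuC 2). Over all genes tested, 13.9% were higher and 19.9% lower. Against these shares, genes of Polycomb complexes had 6 higher and 1 lower members of 26, factors of pausing and elongation 5 and 2 of 38, Mediator 3 and 5 of 32 and BAF remodelling 3 and 2 of 25. C2H2 zinc finger genes had 83 higher and 25 lower members of 372. Only 15 of 40 bivalent lineage regulators passed the read minimum, Pax3 through inAGTuC alone, and of the 15 tested 1 was higher and 5 were lower.

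**Figure D2:**
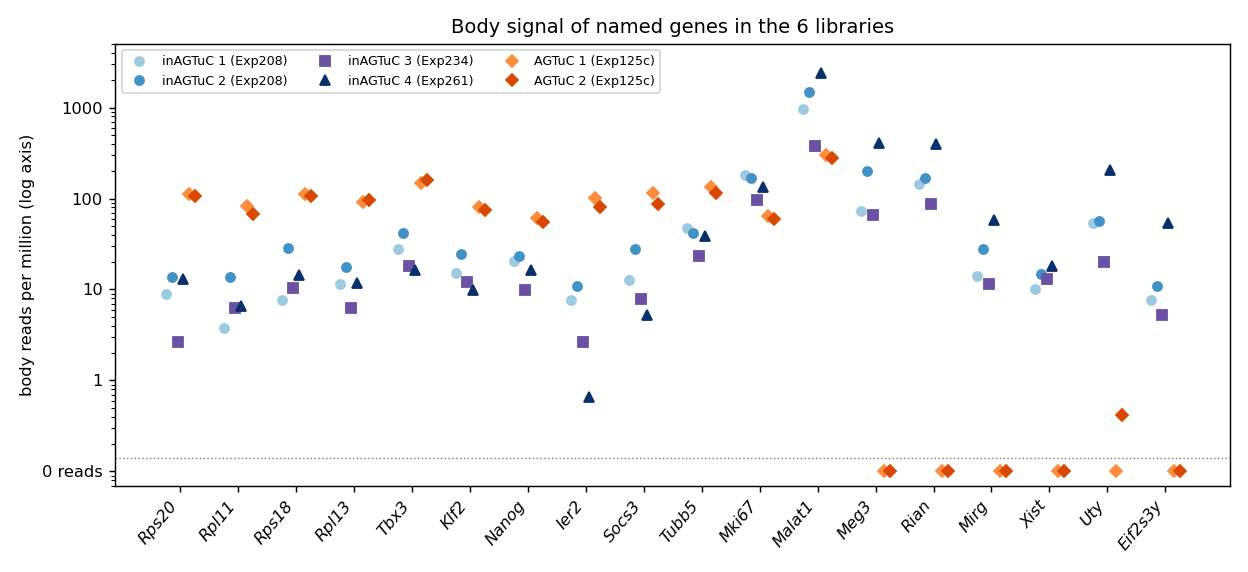
Body signal in RPM (log axis; the lowest line stands for 0 reads) of 18 genes in the 6 libraries, 1 point per library. AGTuC libraries are above all inAGTuC libraries from Rps20 to Tubb5, below them from Mki67 on, and at 0 reads for Meg3, Rian, Mirg, Xist and Eif2s3y.

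A few loci had reads in every inAGTuC library and none in AGTuC. On chromosome 12 these were Meg3 (109540996 to 109571729), Rian (109603945 to 109661716) and Mirg (109734981 to 109749458), long non-coding RNAs of the imprinted Dlk1–Dio3 locus that are transcribed from the maternal chromosome. Meg3 had 57, 205, 127 and 624 body reads in inAGTuC and 0 and 0 in AGTuC. Rian had 113, 172, 165 and 608 body reads, and Mirg 11, 28, 22 and 88, each against 0 and 0. AGTuC holds most of the reads of the comparison, so that these zeros stand against the deepest libraries. Against a floor of 3 reads over both AGTuC libraries together (0.428 RPM), the mean RPM of inAGTuC was at least 438-fold higher for Meg3, 466-fold for Rian and 64.7-fold for Mirg. Without inAGTuC 4 these bounds were 265-fold, 311-fold and 41.3-fold. Adjusted p-values were 0.0022, 0.00062 and 0.0021, and without AGTuC 2 they were 0.067 for Meg3 and 0.092 for Mirg. Rtl1, the protein-coding gene between Meg3 and Rian on the other strand, had 3, 4, 21 and 11 body reads against 0 and 0, and its call was lost without AGTuC 2 (adjusted p = 0.11). Only 21.1% of inAGTuC reads in the body of Rtl1 were sense, against 76.5% for Meg3, 80.5% for Rian and 76.4% for Mirg. All of these loci passed the minimum of 20 reads through inAGTuC alone, which fixes the direction of their calls. Floors and folds of this kind cover counting error only.

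Genes of the Y chromosome were also nearly without reads in AGTuC. Of 93 annotated genes 6 passed the read minimum, among them Erdr1, which lies in the region that X and Y share. The other 5 genes passed through their inAGTuC reads, which fixes the direction of their calls. Together they had 64, 87, 71 and 432 body reads in inAGTuC and 0 and 2 in AGTuC. Uty, a histone demethylase relative, had 42, 57, 38 and 312 body reads against 0 and 2. Eif2s3y had 6, 11, 10 and 83 body reads against 0 and 0, which is at least 45.6-fold, and Ddx3y had 3, 7, 3 and 33 against 0 and 0, at least 19.8-fold. Without inAGTuC 4 these bounds were 18.4-fold and 9.56-fold. Usp9y had 9, 2, 5 and 4 body reads and Zfy1 had 4, 10, 15 and 0, each against 0 and 0 in AGTuC, and 54.1% and 58% of their inAGTuC reads were sense. The call of Zfy1 (adjusted p = 0.045) was lost under several alternatives, those of Eif2s3y and Ddx3y when either AGTuC library was left out, and those of Usp9y (adjusted p = 0.17) and Uty (0.12) without AGTuC 2. With the read density far from genes taken off, Uty (log2 difference −7.98 against −7.66, adjusted p = 0.081) and Ddx3y (−5.30 against −5.60, adjusted p = 0.066) were not called, with differences of similar size.

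Xist, the non-coding RNA that silences an X chromosome, had 8, 15, 25 and 28 body reads in inAGTuC and 0 and 0 in AGTuC, at least 32.9-fold lower (adjusted p = 0.00043). It overlaps Tsix on the other strand, and reads on the wrong strand in inAGTuC touch both genes. Their part in the difference was not tested. Among 443 genes of the X chromosome 22 were higher and 113 lower, with a median of −0.45, and −0.25 with the read density far from genes taken off. Pax3, a lineage regulator, had 4, 6, 18 and 17 body reads against 0 and 0, at least 18.4-fold lower, and its adjusted p was 0.086 without AGTuC 2. Gria1, a glutamate receptor gene of 319 kb, had 32, 8, 87 and 29 body reads against 0 and 0. Of inAGTuC body reads, 50% were sense in Pax3 and 48.6% in Gria1, and both genes, like Xist, passed the read minimum through inAGTuC alone. For Gria1 (log2 difference −7.51) the call was lost with the read density far from genes taken off (difference −5.91, adjusted p = 0.22). It was also lost without AGTuC 2 (difference −6.97). Of 13 tested markers of primitive endoderm and differentiated cells 3 were lower and 1 higher, where 19.9% of all genes tested were lower and 13.9% higher, and among the lower ones was Dab2, an endocytic adaptor gene of 141 kb (log2 difference −1.29, adjusted p = 0.020). This call was lost with the read density far from genes taken off (adjusted p = 0.21), without AGTuC 2 (0.29) or AGTuC 1 (0.064), when scaled to deposited reads (0.074) and with limma-trend at either pseudocount (0.065). Of 6 tested fibroblast markers 1 was lower.

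Several genes with a higher body signal were short and nearly without reads in inAGTuC. Ppp1r3e, a subunit of protein phosphatase, had 2, 0, 2 and 1 body reads in inAGTuC and 83 and 191 in AGTuC (log2 difference 4.8, adjusted p = 0.00043). BC031361 had 2, 0, 4 and 0 against 80 and 148, Kcnj14, a potassium channel gene, 0, 0, 4 and 1 against 67 and 105, and Fbxl22 1, 0, 9 and 0 against 64 and 146. Atoh7, a retinal transcription factor gene, had no body read in inAGTuC and 22 and 68 in AGTuC, at least 21-fold higher against the floor of 3 reads over the 4 inAGTuC libraries. All of these genes passed the read minimum through AGTuC alone, which sets the direction of their calls. Of the body reads of Fbxl22, 43.2% were sense in AGTuC and 31.2% in inAGTuC, and of those of Ppp1r3e 62.7% and 83.3%. For Kcnj14 these percentages were 98.3% and 20%.

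The promoter share was higher in AGTuC for most genes, and the test therefore asked which genes differed from the median gene. Over 10554 genes with at least 20 reads in each region, the median share was 30.6% in AGTuC and 6.67% in inAGTuC, a log2 odds difference of 2.45. Relative to that median gene, 967 genes (9.16%) gained more promoter share and 880 (8.34%) gained less or lost share (a quasi-binomial model of both read counts with dispersions moderated by limma, adjusted p below 0.05). In 89.2% of these genes the promoter reached 20 reads in AGTuC alone, and 949 of them were higher and 441 lower. Among the 669 genes whose promoters reached it in both assays, 11 were higher and 313 lower. Against no difference at all, 8032 genes were higher and 48 lower. With only the 2 inAGTuC libraries of Exp208, 251 and 299 genes were called, and 363 and 515 without AGTuC 2.

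The median difference in promoter share rose with gene length. The median log2 odds difference from the median gene was −0.87 under 5 kb, −0.33 for 5 to 20 kb, 0.24 for 20 to 100 kb, 0.88 for 100 to 500 kb and 1.42 over 500 kb. For genes of 100 to 500 kb the median share was 14.8% in AGTuC and 1.58% in inAGTuC. Of these 1130 genes, 262 were called higher and 25 lower. These values by length are given without the read density far from genes taken off. That density was higher in inAGTuC and adds more body reads to longer genes, which lowers inAGTuC shares most there. Medians with it taken off are the open circles in the plot of medians by gene length. Over all lengths, 817 genes were higher and 760 lower once it was taken off. Promoters with at least 65% GC had a median of 0.36, with 458 higher and 209 lower of 3330, and promoters with under 45% GC −0.77, with 5 higher and 23 lower of 120. Head-to-head genes, whose starts lie within 1 kb of each other, had a median of −0.33. Long non-coding RNA genes had a median of −1.14, with 15 higher and 108 lower of 436. Genes with a TATA motif (TATAAA or TATATA) had a median of −0.35 over 83 genes, with 7 higher and 9 lower. These counts are near the shares over all genes tested, of which 9.16% were higher and 8.34% lower.

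Ctnna3, a catenin gene of 1574 kb, gained promoter share in AGTuC. Its promoter took 1 of 82, 0 of 50, 1 of 185 and 1 of 92 reads in inAGTuC and 32 of 40 and 72 of 92 reads in AGTuC, that is shares of 0 to 1.22% against 80% and 78.3% (log2 odds difference from the median gene 6.28, SE 1.07, adjusted p = 7.3e-19). Over 1574 kb, reads at the density found far from genes can make up most of its inAGTuC body reads. Such reads enter the inAGTuC shares of all long genes named here. Ica1l had 0 promoter reads of 9, 6, 12 and 11 in inAGTuC and 10 of 16 and 44 of 48 in AGTuC. Zfp451 encodes a SUMO ligase. It had 0 promoter reads of 76, 107, 93 and 109 in inAGTuC and 78 of 278 and 169 of 648 in AGTuC (difference 5.68, adjusted p = 9.9e-05). Sdk1 and Fbxl7, long genes of 972 kb and 355 kb, had no promoter read in inAGTuC either, and shares of 16.2% and 20% and of 38.1% and 45.1% in AGTuC, and the call of Fbxl7 was lost with the inAGTuC libraries of Exp208 only (adjusted p = 0.084). Ctnna3, Ica1l, Zfp451, Sdk1 and Fbxl7 passed the minimum of 20 promoter reads through AGTuC alone. Among genes of the lists, Hsf1, the heat shock regulator, had shares of 7.14%, 11.4%, 19.4% and 0% in inAGTuC and of 72% and 65.6% in AGTuC. In 1 assay a single bin of 50 bp held 81.4% of its promoter or body reads, and its call was lost when each position was counted once (adjusted p = 0.39) and with the inAGTuC libraries of Exp208 only (0.12). With 12 promoter reads in inAGTuC, it too passed the minimum through AGTuC alone. Mki67 went from 0.490% to 4.67% in inAGTuC to 32.9% in both AGTuC libraries (difference 1.54, adjusted p = 0.0043). This call was lost without inAGTuC 3 (adjusted p = 0.080), without AGTuC 2 (0.056), without the molecules shared between libraries (0.076), and with the inAGTuC libraries of Exp208 only (difference 0.78, adjusted p = 0.28).

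Ribosomal protein genes gained less promoter share than the median gene, or lost share. None of 79 was called higher and 53 were called lower than the median gene, with a median of −1.81. Shares over all genes tested were 9.16% higher and 8.34% lower. Most of these genes are under 5 kb, and the median of all genes of that length, given above, is negative too but closer to that of all genes. Body reads enter both measures, so a higher body signal and a smaller gain of promoter share are not separate results. The same holds for the lists that follow. Their median share was 24.5% in inAGTuC and 32.4% in AGTuC, a smaller gap than for the median gene. Rps9, shown above, had shares of 23.1%, 26.8%, 45.2% and 29.2% in inAGTuC and of 30.6% and 31% in AGTuC (log2 odds difference −0.06, and −2.51 from the median gene, adjusted p = 4.6e-08). Rps2 had shares of 95.2%, 74.2%, 78.6% and 95.5% against 58.6% and 53.1%, a difference from the median gene of −5.39 that went to −2.85 with small RNA genes left out on both strands (the median gene itself lay at 2.45). In Rpl41 the shares were 100%, 90.0%, 78.6% and 83.3% against 50.5% and 64.5%. With reads on small RNA genes counted, 22 genes of the list were higher and 33 lower, and Rps2 turned to 0.28 (adjusted p = 0.54). With the inAGTuC libraries of Exp208 only, 27 of the list were lower and none higher.

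Smaller gains of promoter share than in the median gene, or losses, were also found in the pluripotency genes, the snoRNA hosts and the cytoskeletal genes. Of 15 pluripotency genes 9 were lower than the median gene and none higher, with a median of −1.47 and median shares of 11% in inAGTuC and 15.4% in AGTuC. Nanog had shares of 20%, 20%, 32.1% and 26.5% in inAGTuC and of 14.4% and 11.4% in AGTuC (difference from the median gene −3.69, adjusted p = 8.7e-09). Zfp42, a marker of naive ES cells, was lower only relative to the median gene (−1.87), and its own log2 odds difference was 0.58. That call was lost with the inAGTuC libraries of Exp208 only (adjusted p = 0.29). Of 19 snoRNA hosts 15 were lower and none higher, with a median of −1.90, which became 1.23 with 9 higher and 3 lower when reads on small RNA genes were counted. Snhg1 had 22.2%, 32.5%, 15.2% and 16.9% in inAGTuC and 7.07% and 12.4% in AGTuC, a difference of −3.44 that turned to 1.27 with those reads counted. Snhg7 had a difference of −3.23, and −0.59 with those reads counted. In the remaining lists, 8 of 21 actin and tubulin genes (Tubb5 by −3.59), 9 of 25 replication licensing genes (Mcm7 by −3.65), 10 of 30 nucleolar genes, 7 of 20 genes of the FGF, Nodal and BMP response and 7 of 20 genes of the integrated stress response were lower and none higher. Immediate early genes were lower in 5 and higher in 1 of 23, with a difference of −3.76 for Ier2. With libraries pooled, the share itself fell from inAGTuC to AGTuC in Snhg7 (36.3% to 25%), Tubb5 (17.9% to 9.09%), Mcm7 (19.6% to 9.68%) and Ier2 (62.9% to 40.3%). In each of these genes single libraries of the assays overlapped. Over all genes tested, 8.34% were lower and 9.16% higher. Among the 669 genes whose promoters reached the read minimum in both assays, 313 were lower and 11 higher, and the lists were not split in this way. Neat1, the RNA of paraspeckles, differed from the median gene by −1.78 although its share went from 4.69% to 10.1% in inAGTuC to 12% and 13.1% in AGTuC.

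**Figure D3:**
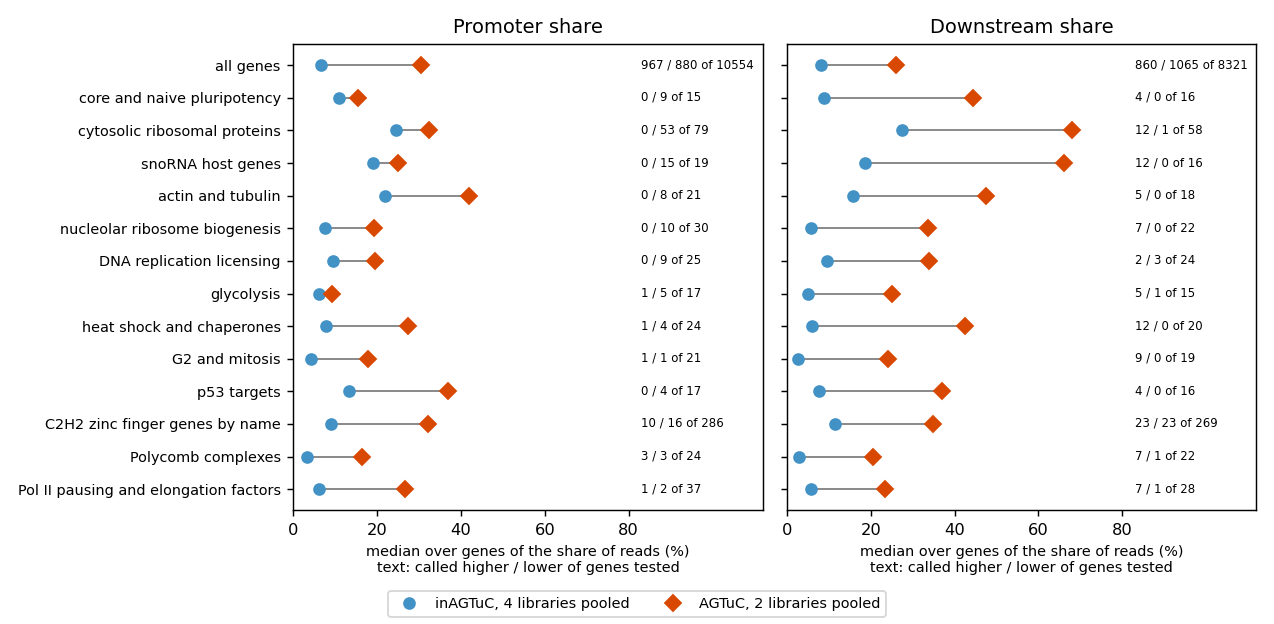
Median over genes of the promoter share (left) and the downstream share (right) in 14 groups of genes, for the pooled inAGTuC and AGTuC libraries; numbers give genes called higher and lower than the median gene, of those tested. Promoter shares of ribosomal protein, snoRNA host and pluripotency genes differ little between the assays, while their downstream shares differ by more than those of all genes.

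Over the genes tested, 28.2% and 29.7% of the sense reads between 500 bp before and 2000 bp after the start lay in the first 100 bp in AGTuC, with a peak in the bin from 60 to 80 bp. In inAGTuC these percentages were 7.99%, 6.91%, 15.9% and 3.89%. Over 79 ribosomal protein genes, the first 100 bp held 5.24% and 6.52% of such reads in AGTuC and 4.78%, 4.08%, 14.9% and 2.92% in inAGTuC. The ranges of the assays overlapped through inAGTuC 3 only, and inAGTuC 1, 2 and 4 lay below both AGTuC libraries. Genes of 100 kb or more had 33.7% and 34.4% there in AGTuC and 4.38% to 16.7% in inAGTuC. A narrow peak of inAGTuC 1, 2 and 4 lay between 200 and 280 bp. Of 5203 reads in that window in inAGTuC 4, 2014 lay in 1110038B12Rik and 1198 in Dancr, together 61.7%. This pair of genes held 32.7% and 14.6% of the reads of the window in inAGTuC 1 and 2, and the leading pair held 1.60% in inAGTuC 3 and 0.578% and 0.475% in AGTuC.

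**Figure D4:**
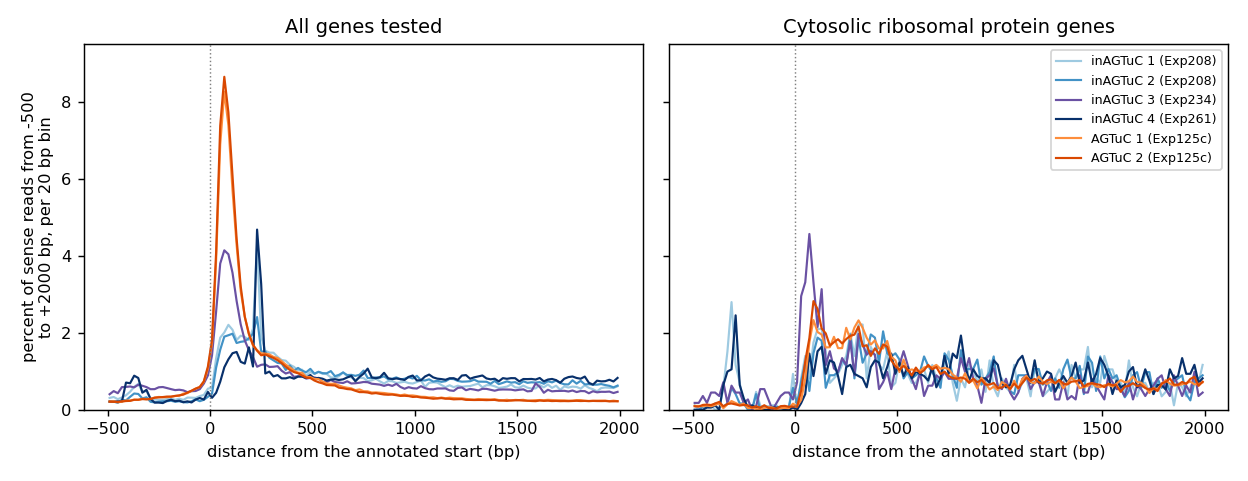
Sense reads by distance from the annotated start in bins of 20 bp, as a percentage of those between −500 and 2000 bp, for all genes tested for promoter share (left) and 79 cytosolic ribosomal protein genes (right), 1 line per library. The fullest bin of the AGTuC libraries starts at 60 bp over all genes, with 8.26% and 8.65%, and at 80 bp over ribosomal protein genes, with 2.33% and 2.82%, while that of inAGTuC 3 starts at 60 bp in both panels (4.14% and 4.57%) and that of the other inAGTuC libraries over all genes at 220 bp.

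Past the annotated end, AGTuC also had a larger share of reads. Over 8321 genes the median downstream share was 26.1% in AGTuC and 8.26% in inAGTuC (log2 odds difference 2.00). Relative to that median, 860 genes (10.3%) were higher and 1065 (12.8%) lower. In 77.5% of the genes the downstream region reached 20 reads in AGTuC alone, and 775 of them were higher and 318 lower, while 82 were higher and 409 lower among the 1065 genes that reached it in both assays. The pattern by length was weaker than at promoters, with medians of −0.65 under 5 kb and 0.45 for 100 to 500 kb. Long non-coding RNA genes had a median of −1.56, with 30 higher and 125 lower of 360. Calls came to 260 and 385 with the inAGTuC libraries of Exp208 only, 601 and 654 without inAGTuC 3, and 406 and 572 without AGTuC 2.

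Malat1, an abundant nuclear RNA whose 3′ end is made by RNase P rather than by polyadenylation, had a higher downstream share in AGTuC. Its downstream region held 5 of 760, 2 of 1491, 7 of 721 and 1 of 3684 reads in inAGTuC and 380 of 1057 and 810 of 2128 reads in AGTuC, so that shares were below 1% in each inAGTuC library and 36% and 38.1% in AGTuC (difference from the median gene 6, SE 0.50, adjusted p = 7.8e-136). Its body signal was lower in AGTuC, at 959, 1465, 373 and 2413 RPM against 302 and 276 RPM (log2 difference −2.14, adjusted p = 0.0053, and 0.073 without AGTuC 2). Tsix had downstream shares of 2.22%, 3.20%, 1.06% and 1.47% against 38.3% and 39.8%. With 15 and 10 downstream reads in inAGTuC, Malat1 and Tsix passed the minimum of 20 through AGTuC alone.

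snoRNA hosts were higher in 12 of 16 and lower in none, with a median of 1.62 and median shares of 18.7% in inAGTuC and 66.2% in AGTuC. Among all genes tested, 10.3% were higher and 12.8% lower. Gas5 had shares of 1.32%, 2.28%, 11.6% and 0.343% in inAGTuC and of 52.9% and 55.6% in AGTuC (difference 4.45, adjusted p = 6.8e-121), although in 1 assay a single bin of 50 bp held 76.3% of its body or downstream reads. Snhg12 had 8.20%, 4.29%, 2.14% and 3.28% against 68.5% and 69.2%, and with 16 downstream reads in inAGTuC it passed the minimum through AGTuC alone. In Snhg3 the shares were 18.9%, 28%, 43.5% and 9.02% against 91.4% and 88.7%. No library of one assay reached those of the other in these 3 genes. Relative to the median gene, this was so for 14.6% of all genes tested with AGTuC higher and 17.8% with AGTuC lower. Ribosomal protein genes were higher in 12 and lower in 1 of 58, among them Rps24, which had 13.4% to 20% in inAGTuC and 69.6% and 65.9% in AGTuC, and Rpl3, which had 4.88% to 25.0% and then 57.8% and 56.1%.

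Chaperone genes were higher in 12 of 20 and lower in none (median 1.37), and genes of G2 and mitosis in 9 of 19 and none (median 1.58). Among all genes tested, 10.3% were higher and 12.8% lower. Hspa4 had 1.00%, 1.75%, 2.86% and 1.49% in inAGTuC and 25.2% and 22.6% in AGTuC (difference 2.03, adjusted p = 1.9e-05). Hspa5, which encodes the chaperone of the endoplasmic reticulum, had 0% to 14.5% and then 46% and 50.9%. Mki67 had 1.38%, 2.87%, 3.7% and 0.490% against 27.4% and 30%, and Top2a, which encodes topoisomerase II, 1.23% to 3.23% against 21.7% and 21.6%. With the inAGTuC libraries of Exp208 only, Top2a (adjusted p = 0.13) and Hspa5 (0.050) were not called. Pluripotency genes were higher in 4 of 16. Esrrb, a nuclear receptor of naive ES cells, had 0% to 0.654% in inAGTuC and 12.7% and 11.8% in AGTuC, and Fgf4, a growth factor gene, 2.5% to 8.51% and then 58.9% and 61.9%. Actb, which encodes β-actin, had 2.5% to 6.67% and then 46.6% and 50.1%. Hspa4, Hspa5, Mki67, Top2a, Esrrb, Fgf4 and Actb had 6 to 15 downstream reads in inAGTuC and passed the minimum through AGTuC alone. Replication licensing genes, at 2 higher and 3 lower of 24, and mitochondrial ribosomal protein genes, at 3 and 3 of 61, had medians of −0.05 and −0.02.

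**Figure D5:**
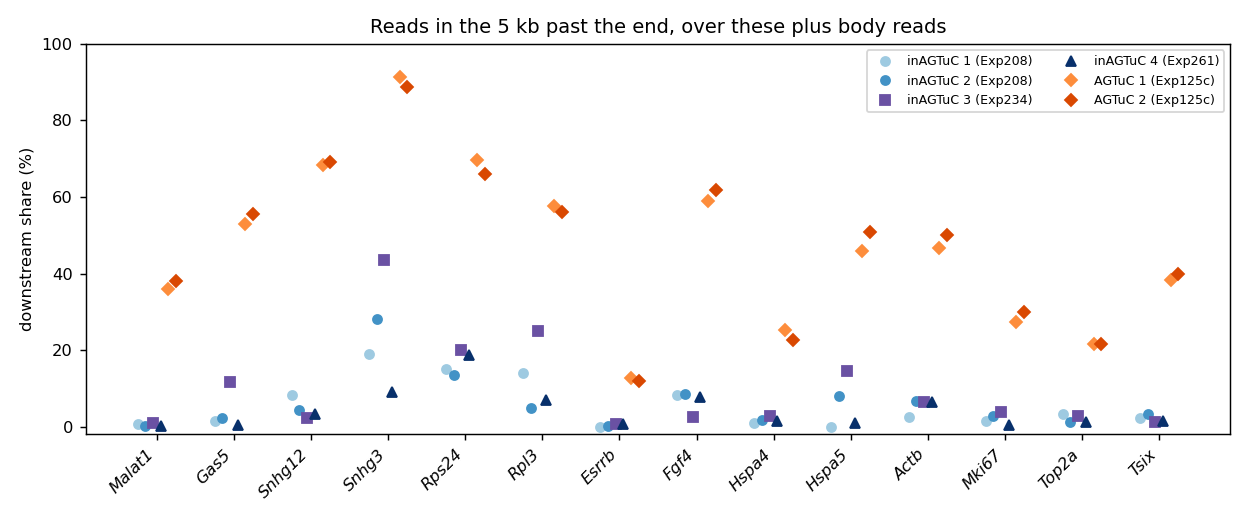
Downstream share in percent of 14 genes in the 6 libraries, 1 point per library. All AGTuC points lie above all inAGTuC points of the same gene, and inAGTuC 3 has the highest inAGTuC share in Snhg3, Rpl3 and Hspa5.

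Zfp760, Med28, a Mediator subunit gene, and Bzw2 had no downstream read in any inAGTuC library, and shares of 41.8% and 44.7%, of 57.6% and 53.1% and of 18.4% and 13.8% in AGTuC. With the inAGTuC libraries of Exp208 only, Zfp760 (adjusted p = 0.064) and Bzw2 (0.076) were not called. All 3 passed the minimum of 20 downstream reads through AGTuC alone. Traf3ip3 had all 30 and all 60 of its reads downstream in AGTuC, and 12 downstream reads in inAGTuC. Some of the largest lower calls lie where inAGTuC has reads antisense to small RNA genes. In Rfc4, which encodes a clamp loader subunit, 1183, 716, 457 and 310 downstream reads in inAGTuC stood against 3 and 7 in AGTuC, many of them antisense to the snoRNAs of the neighbouring gene Eif4a2. With small RNA genes left out on both strands its difference went from −11.96 to −7.83 and stayed called. Likewise, promoter reads of Ccdc107 (571, 545, 480 and 1564 against 53 and 112) lie antisense to Rmrp, and those of Tti2 (32, 37, 91 and 27 against 8 and 20) antisense to Snord13. With small RNA genes left out on both strands, the difference of Ccdc107 went from −7.52 to 1.12, and with a window of 250 bp it was 0.71, neither of them called. That of Tti2 went from −6.88 to −2.58 and −2.34, and the latter was not called. Dancr, with 98.5%, 90.2%, 81.8% and 99.0% against 74.7% and 66.7%, had 67.1% of its promoter or body reads of 1 assay in a single bin of 50 bp. Csf3, Nfe2, Vgf and Gm16618 were also lower downstream, with 0 to 2 downstream reads per AGTuC library, so that they, like Rfc4, passed the minimum through inAGTuC alone. Gm29443 and Tbx3os1, which also passed through inAGTuC alone, and Kcnj14 had lower promoter shares.

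Within the body, the share of reads from 500 to 5500 bp after the start was compared for 7518 genes over 11 kb. The median was 19.4% in AGTuC and 16.7% in inAGTuC (log2 odds difference 0.22), and relative to it 838 genes (11.1%) were higher and 511 (6.80%) lower. In 31% of the genes the early region reached 20 reads in AGTuC alone, with 439 higher and 24 lower, and among 3892 genes that reached it in both assays 371 were higher and 383 lower. Without AGTuC 2, 403 and 221 were called, and 435 and 249 with the inAGTuC libraries of Exp208 only. Genes with the lowest body signal per kb (the bottom 25%) were higher in 127 of 353 and lower in 4, with a median of 1.22. With so few reads per kb, the minimum of 20 early reads itself selects genes with many early reads. These genes were not split by the assay in which they reached it, so the direction of their calls may follow from the minimum. Cdk13, a kinase gene of elongation, had 10.4%, 11.3%, 13.7% and 10.2% in inAGTuC and 19.5% and 31.2% in AGTuC (difference 1.37, adjusted p = 1.3e-06, and 0.24 without AGTuC 2). Larp7, which binds the 7SK RNA, had 0% to 38.5% and then 50.0% and 67.3%, with 7 early reads in inAGTuC. In total 5 of 28 pausing and elongation factor genes were higher and none lower, and without AGTuC 2 these counts were 1 and 1. Of 19 Mediator genes 5 were lower and none higher, and without AGTuC 2 these counts were 2 and 0, with differences of −2.27 for Med30 and −1.81 for Med12. Both calls were lost without AGTuC 2 (adjusted p = 0.24 and 0.064), and also without some other libraries. Med30 had 17 early reads in inAGTuC and 11 in AGTuC, and Med12 had 31 and 10. Klf5 had 46.4%, 52%, 49.2% and 50.0% in inAGTuC and 36% and 31.4% in AGTuC (difference −1.24, adjusted p = 1.6e-05). Aen had 21.2% to 42.1% in inAGTuC and 10.6% and 12.9% in AGTuC, and Jarid2, a partner of Polycomb repressive complex 2, 8.51% to 9.20% and then 6.75% and 5.97% (adjusted p = 0.053 without AGTuC 2). Mdm2, which encodes the ligase that targets p53, was higher by 0.64, but not when reads at 1 position were counted once (adjusted p = 0.20), without AGTuC 2 (0.064) or without inAGTuC 4 (0.12). Zfp42 had a difference of −0.76, whose call was lost without inAGTuC 4 (adjusted p = 0.15) and without AGTuC 2 (0.12). In G730013B05Rik, a sparse gene, early reads were 2 of 4, 5 of 18, 6 of 20 and 3 of 4 in inAGTuC and 49 of 50 and 140 of 140 in AGTuC. Mapt, the gene of the tau protein, had 3 of 20, 3 of 35, 9 of 83 and 5 of 94 early reads in inAGTuC and 0 of 136 and 3 of 253 in AGTuC (difference −3.63, adjusted p = 1.2e-05). Larp7 and G730013B05Rik passed the minimum of 20 early reads through AGTuC alone, and Mapt and Med12 through inAGTuC alone.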

How the data were processed

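Per the labels and the study's methods, the authors trimmed reads (Cutadapt, Flexbar), aligned them with bowtie2 to ribosomal DNA and then to mm10, and collapsed duplicates by UMI. The deposited BED lists hold 1 row per molecule and a score, the mapping quality, which served only as a filter in 1 alternative. Reads were counted here by RNA 3′ end, the 5′ end of the read on the opposite strand, in 24757 RefSeq genes of GRCm38. Reads within 10 bp of 4096 small RNA genes and reads in more than 1 gene on the same strand were left out. Genes needed 20 reads over the 6 libraries in each region of a measure, and those tested were at least 1000 bp long, or 11 kb for the early share. Body signal was tested with limma voom (limma 3.58.1, R 4.3.3) after median-of-ratios scaling. Shares were tested against the median gene with quasi-binomial fits whose dispersions limma moderated, and p-values were adjusted by Benjamini–Hochberg over all genes of a measure. Counting used Python 3.11.15. An exact permutation test of 2 against 4 libraries cannot go below p = 0.0667 (two-sided), so single genes rest on the moderated fits. On simulated data with 200 changed genes, 8% of 2-fold and 77.5% of 4-fold body changes were called, and for 4-fold changes of odds 17.5%, 24.5% and 47% (promoter, downstream, early share). For 2-fold changes of odds 0% were called in each share. With 4-fold changes, false calls were 6 for body signal and 1, 3 and 11 for the shares in that order. Members and lists were chosen with earlier results of these data known. Genes named were, per measure and direction, up to 5 with the largest differences among calls without overlap, with at least 50 reads and no bin of 50 bp over 50% of reads, and up to 4 called members of each list, from which the text takes some, plus loci chosen after their values were seen (Rtl1, genes of the Y chromosome, and genes with reads antisense to small RNAs). Depth limits sparse genes.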

Additional observations from a re-analysis of the deposited data

Results flagged for a closer look

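The 4 inAGTuC libraries were compared by Dixon's criterion in 115 measures, the named genes and 3 properties of the libraries. In 5 of them 1 library lay far from the others, and chance marks about 1 in 20 such groups. The body signal of Eif2s3y was 54.4 RPM in inAGTuC 4 against at most 10.8 RPM in the other inAGTuC libraries, and that of Usp9y was 11.4 RPM in inAGTuC 1 against at most 2.62 RPM. The downstream share of Fgf4 was 2.5% (1 of 40 reads) in inAGTuC 3, that of Actb 2.5% (1 of 40 reads) in inAGTuC 1, and that of Vgf 50% (2 of 4 reads) in inAGTuC 1.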

How the results depend on the processing

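Numbers of called genes moved by more than 1.5 times under some settings. For body signal they were 9528 with a minimum of 1 read, 2943 with the read density far from genes taken off (2883 of 2886 shared calls kept their sign), and 717 to 5082 when 1 library was left out. For the promoter share they were 957 without molecules shared between libraries, 8080 when tested against no difference, 550 with inAGTuC of Exp208 only, and 878 to 1816 when 1 library was left out. For the downstream share they were 1254, 5901, 645 and 978 to 1577 in the same order, 1106 with a minimum of 50 reads and 2940 with 1 read. For the early body share they were 684 with inAGTuC of Exp208 only and 624 to 1175 when 1 library was left out. Among 112 tests of named genes, 11 values in 10 genes turned their sign and 74 values lost their call, out of all pairs of a gene and a setting. With small RNA reads counted, body differences were −0.55 for Snhg15, −1.13 for Snhg16, −1.42 for Rps3, −0.80 for Snhg7 and −1.75 for Hspa8, and promoter differences 0.28 for Rps2 and 1.27 for Snhg1. Against no difference, promoter values were 0.58 for Zfp42 and 0.67 for Neat1. Ccdc107 had 0.71 with a window of 250 bp and 1.12 with small RNA genes left out on both strands. The cause of these shifts was not tested. The alternatives with mapping quality of 20 or more, small RNA genes out on both strands, inAGTuC of Exp208 only and read density taken off were chosen after seeing the data. No paired analysis was possible because replicate numbers follow accession order and link no libraries across assays. Depth limits the shares of genes with few reads per inAGTuC library.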
